A study of Mus musculus with 6 samples.

Results

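Interferon-stimulated genes are the genes that cells switch on after an interferon binds its receptor. The 47 examined here were chosen by symbol from the 24421 gene rows of a count table of mouse bone marrow, and all 47 symbols were found. They were divided by role into 37 genes of the OAS/IFIT/MX type (antiviral effectors, RNA sensors and their regulators), 7 GTPase genes (Gbp, Irgm and relatives) and 3 antigen-processing genes. The comparison was between LK cells (bone marrow progenitors that lack lineage markers and carry the receptor c-Kit) of C57BL/6 ASXL1-MT-KI mice, which carry a knock-in of mutant ASXL1, and LK cells of wild type littermates. Each group had 3 libraries, described as biologically independent experiments, from animals 8 to 12 weeks old. No treatment is recorded, so the levels are those of unchallenged animals as far as the labels state. The sources used here do not give the locus and promoter of the knock-in, nor whether a library was 1 animal.

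ASXL1 regulates chromatin, and mutations in its gene recur in myeloid malignancies and clonal haematopoiesis. Type I interferons act through the receptor chains IFNAR1 and IFNAR2, the kinases JAK1 and TYK2 and a complex with STAT2 and IRF9 that binds the interferon-stimulated response element in target promoters. Interferon gamma acts through IFNGR1, IFNGR2, JAK1 and JAK2, and its targets carry the gamma-activated site. In bone marrow, interferon drives stem cells out of dormancy, and stem cells are known to express part of the interferon-stimulated programme even without interferon.

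The libraries held 40462168 to 47579480 counts, and edgeR put the common biological coefficient of variation at 8.78%. Asxl1 had 15525, 14763 and 12868 counts in the ASXL1-MT-KI libraries, against 8077, 7793 and 6703 in wild type, so that the labels and the counts of this gene go together. Kit, the marker of the gate, averaged 383 ± 11.7 CPM (counts scaled to library size with TMM factors) in ASXL1-MT-KI cells and 406 ± 41.0 CPM in wild type cells (SD, n = 3 each). Of the markers of mature cells that the gate removes, Cd3e, Cd3g, Cd8a and Ms4a1 had at most 8 counts summed over either group. The titles number the libraries 1 to 3 in each group, and values with that number as a block are given where they change the call of a gene named here or move a list's count by over 1.5 times.

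A minority of the interferon-stimulated genes was lower in ASXL1-MT-KI cells, and these were mostly the weakly expressed antiviral effectors. Of 46 members with enough counts for a test, 11 fell (23.9%) and none rose at an adjusted p under 0.05 (edgeR, quasi-likelihood F test, Benjamini-Hochberg over 13548 genes). Over all tested genes 16.0% were called, 7.69% lower and 8.29% higher. At an unadjusted p under 0.05, edgeR had 17 members lower and 3 higher, beside 1927 and 2194 of all 13548 genes. DESeq2 called 12 members lower and 1 higher, beside 1137 and 1213 of all genes, and limma-voom 11 and 0, beside 1038 and 1125. The unadjusted counts of roles and lists below have the same background. The median log2 fold change of the members was -0.17, beside 0.00 for all tested genes, and 35 of 46 (76.1%) had a negative estimate, beside 49.8% of all genes. In 18 members all ASXL1-MT-KI libraries lay below all wild type libraries and in 3 above, where 17.2% and 18.0% of all tested genes did so.

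The count of falls rested on more than 1 library but was not robust to each of them. Leaving out wild type replicate 1 gave 6 falls, leaving out ASXL1-MT-KI replicate 2 gave 7, and leaving out any other single library gave 8 to 12. Falls over all genes also dropped, from 1042 to 594 without wild type replicate 1 and to 587 without ASXL1-MT-KI replicate 2. The loss is thus not particular to the members. With the replicate block 16 members fell and 5 rose, where 13.8% and 16.7% of all genes did. Ifi44, Oas2, Rsad2 and Trim25 passed in all 15 alternatives. Ifi27l2a passed in the 14 that tested it, and a filter at CPM 1 left it untested. Its main filter was passed only through the wild type libraries, so its repeated passing is no separate support. Without Ifi27l2a, 10 of 45 members fell. The other 6 calls were lost in at least 1.

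**Figure D1:**
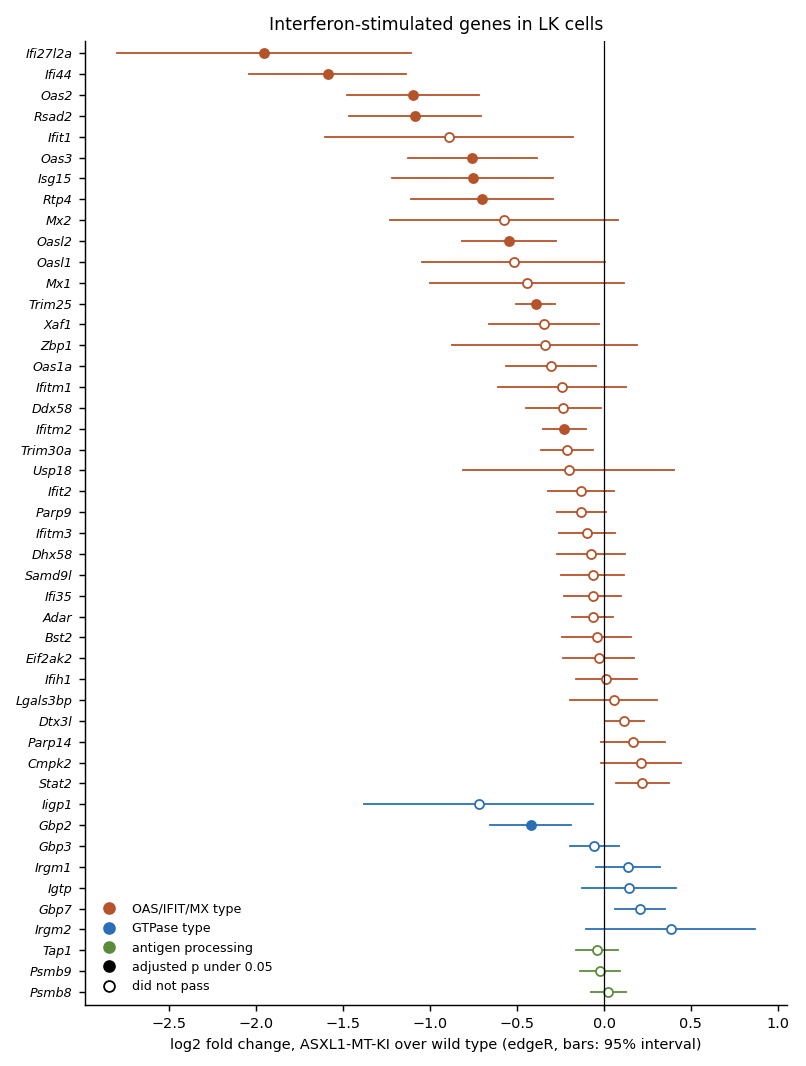
Log2 fold change of ASXL1-MT-KI over wild type for the 46 tested members (x axis), 1 per line and grouped by role, with the 95% interval of the edgeR estimate as a bar. Filled points passed at an adjusted p under 0.05: 10 of the OAS/IFIT/MX type, 1 GTPase gene and no antigen-processing gene, all to the left of 0.

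The counts follow for each of the 3 roles; the difference between roles was not tested. Of 36 tested members of the OAS/IFIT/MX type, 10 fell and none rose in edgeR (15 lower and 2 higher at an unadjusted p under 0.05; 1 rose in DESeq2 and none in limma-voom), with a median log2 fold change of -0.23. Of the 7 GTPase genes, 1 fell and none rose in edgeR (2 lower and 1 higher at an unadjusted p under 0.05; none rose in DESeq2 or limma-voom), with a median of 0.14. None of the 3 antigen-processing genes passed in edgeR, either at an unadjusted p under 0.05 or by DESeq2 or limma-voom, and their median was -0.02. Summed over the role, the OAS/IFIT/MX type took 948.2 to 988 CPM in ASXL1-MT-KI libraries and 1029 to 1092 CPM in wild type libraries. The GTPase genes together took 145 to 161.1 CPM in ASXL1-MT-KI and 144.6 to 147.9 CPM in wild type, and the antigen-processing genes 407.7 to 421.2 CPM and 406.1 to 419.4 CPM in the same order.

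The OAS family, whose enzymes sense double-stranded RNA and make the 2'-5' oligoadenylates that activate RNase L, held the most calls of any family. Oas2, on chromosome 5 (120730333 to 120749853 in mm10), had 1.54, 1.55 and 1.74 CPM in ASXL1-MT-KI libraries, against 3.31, 4.01 and 3.01 CPM in wild type. Every ASXL1-MT-KI library was below every wild type library, and the gene fell to 0.467 of the wild type level (log2 fold change -1.10 ± 0.17, SE; adjusted p = 0.00264). Its neighbour Oas3 had 3.46, 4.45 and 3.42 CPM in ASXL1-MT-KI, against 6.30, 7.55 and 5.30 CPM in wild type, again without overlap (log2 fold change -0.76 ± 0.17, adjusted p = 0.0145). Oasl2, an OAS-like gene elsewhere on chromosome 5, had 5.25, 4.54 and 4.17 CPM in ASXL1-MT-KI and 6.75, 6.91 and 6.73 CPM in wild type (log2 fold change -0.55 ± 0.12, adjusted p = 0.0152). Both calls were near the threshold when 1 library was left out: leaving out wild type replicate 1 gave an adjusted p of 0.0555 for Oas3 and 0.0561 for Oasl2. Oas3 had 0.0540 when ASXL1-MT-KI replicate 1 was omitted, and Oasl2 0.0589 when ASXL1-MT-KI replicate 2 was.

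The remaining 2 family members had lower estimates that did not pass. Oas1a had 8.19, 8.14 and 7.21 CPM in ASXL1-MT-KI, against 9.50, 10.9 and 8.60 CPM in wild type, groups that did not overlap (log2 fold change -0.30, 95% interval -0.56 to -0.05; adjusted p = 0.107). It passed with the replicate block (adjusted p = 0.0238) and without wild type replicate 3 (adjusted p = 0.0446). Oasl1, whose product is known in mouse to restrain translation of IRF7, overlapped between groups, with 5.02, 5.26 and 3.08 CPM in ASXL1-MT-KI and 6.08, 8.05 and 5.08 CPM in wild type (log2 fold change -0.52, adjusted p = 0.168). With the block it passed too (adjusted p = 0.00407). Per kilobase of the longest transcript Oas1a stood highest in the family, at 4.16 CPM per kb in ASXL1-MT-KI and 5.14 in wild type, and Oas2 lowest, at 0.406 and 0.869.

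The IFIT and MX genes, among the most strongly interferon-inducible of all, were close to silent apart from Ifit2. IFIT proteins bind viral RNA and block its translation, and MX proteins are dynamin-like GTPases that trap viral components. The GENCODE M21 annotation lists Mx2 as a polymorphic pseudogene. Whether Mx1 or Mx2 makes a working protein in these mice was not tested. Ifit2 had 14.5, 16.6 and 16.1 CPM in ASXL1-MT-KI and 16.8, 16.3 and 18.6 CPM in wild type (log2 fold change -0.13, 95% interval -0.32 to 0.06; adjusted p = 0.334). Ifit1 had 0.709, 0.752 and 0.289 CPM in ASXL1-MT-KI, against 1.11, 1.13 and 1.03 CPM in wild type. Its groups did not overlap, but on 80 and 145 counts it missed the threshold (log2 fold change -0.89 ± 0.32, adjusted p = 0.0894); with the block it passed (adjusted p = 0.0181). Ifit3 had 14 counts in all ASXL1-MT-KI libraries and 25 in all wild type libraries, too few for a test. Mx1 had 0.959, 1.33 and 0.892 CPM in ASXL1-MT-KI, against 1.11, 1.79 and 1.43 CPM in wild type, and Mx2 0.521, 0.951 and 0.820 CPM in ASXL1-MT-KI, against 1.46, 1.07 and 0.862 CPM in wild type; both overlapped between groups (adjusted p = 0.265 and 0.221).

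Rsad2 encodes viperin, a radical enzyme that makes a chain-terminating nucleotide from CTP, and Cmpk2 encodes a mitochondrial nucleotide kinase; the 2 genes lie head to head on chromosome 12, with 26442746 to 26456452 for Rsad2 and 26469204 to 26479837 for Cmpk2. Rsad2 had 2.42, 2.70 and 1.98 CPM in ASXL1-MT-KI, against 5.82, 4.88 and 4.39 CPM in wild type. It fell to 0.471 of the wild type level (log2 fold change -1.09 ± 0.17, adjusted p = 0.00279). Cmpk2 was more abundant and its estimate had the opposite sign, with 32.3, 36.7 and 30.9 CPM in ASXL1-MT-KI and 29.8, 31.8 and 24.6 CPM in wild type. The groups overlapped and the gene did not pass (log2 fold change 0.21, 95% interval -0.02 to 0.44; adjusted p = 0.202), except with the replicate block (adjusted p = 0.0163).

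Ifi44, an antiviral effector of poorly known mechanism on chromosome 3 (151730922 to 151749960), was one of the 2 members with the lowest p. It had 0.625, 0.664 and 0.723 CPM in ASXL1-MT-KI, against 1.81, 2.33 and 1.92 CPM in wild type. The 90 counts in ASXL1-MT-KI and 268 in wild type gave a log2 fold change of -1.59 ± 0.20 (adjusted p = 0.00104), between -1.68 and -1.47 in the alternatives. Ifi27l2a had 0.250, 0.111 and 0.120 CPM in ASXL1-MT-KI, against 0.719, 0.698 and 0.493 CPM in wild type (log2 fold change -1.96 ± 0.38, adjusted p = 0.00821). It rests on 22 and 85 counts, and passed the filter on low counts only through the wild type libraries, so that a difference was built into its inclusion. Without it, 10 of 45 members fell, with a median log2 fold change of -0.13. Rtp4, which encodes a chaperone of G protein-coupled receptors with antiviral activity, had 1.23, 1.64 and 1.23 CPM in ASXL1-MT-KI and 2.16, 2.22 and 2.29 CPM in wild type (log2 fold change -0.70 ± 0.18, adjusted p = 0.0292). That call was lost without wild type replicate 1 or 2 (adjusted p = 0.0790 and 0.0655), on leaving out ASXL1-MT-KI replicate 1 or 3 (0.0992 and 0.0793) and without number 3 of both groups (0.0801).

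ISG15 is a ubiquitin-like protein that is joined to other proteins after interferon, USP18 removes it and also dampens the type I receptor, and TRIM25 is a ubiquitin ligase that acts on the sensor RIG-I and on ISG15 targets. Isg15 had 1.5, 1.28 and 1.09 CPM in ASXL1-MT-KI, against 2.35, 2.44 and 1.75 CPM in wild type, without overlap (log2 fold change -0.76 ± 0.21, adjusted p = 0.0354). Its adjusted p was 0.124 and 0.102 without wild type replicates 1 and 2, and 0.104 and 0.0946 on leaving out ASXL1-MT-KI replicates 2 and 3. Trim25 was far more abundant, with 92.7, 93.1 and 96.9 CPM in ASXL1-MT-KI and 127.6, 125.4 and 118.5 CPM in wild type. The groups lay far apart for the replicate spread (log2 fold change -0.39 ± 0.05, adjusted p = 0.00104). Usp18 averaged 2.11 ± 0.441 CPM in ASXL1-MT-KI and 2.43 ± 0.901 CPM in wild type and did not pass (adjusted p = 0.662). Trim30a, a TRIM protein of rodents with several close paralogs, had 35.2, 38.8 and 35.6 CPM in ASXL1-MT-KI, against 40.1, 44.3 and 42.7 CPM in wild type. It missed the threshold (log2 fold change -0.21, adjusted p = 0.0561) and passed with the block and in DESeq2 (adjusted p = 0.00800 and 0.0456).

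**Figure D2:**
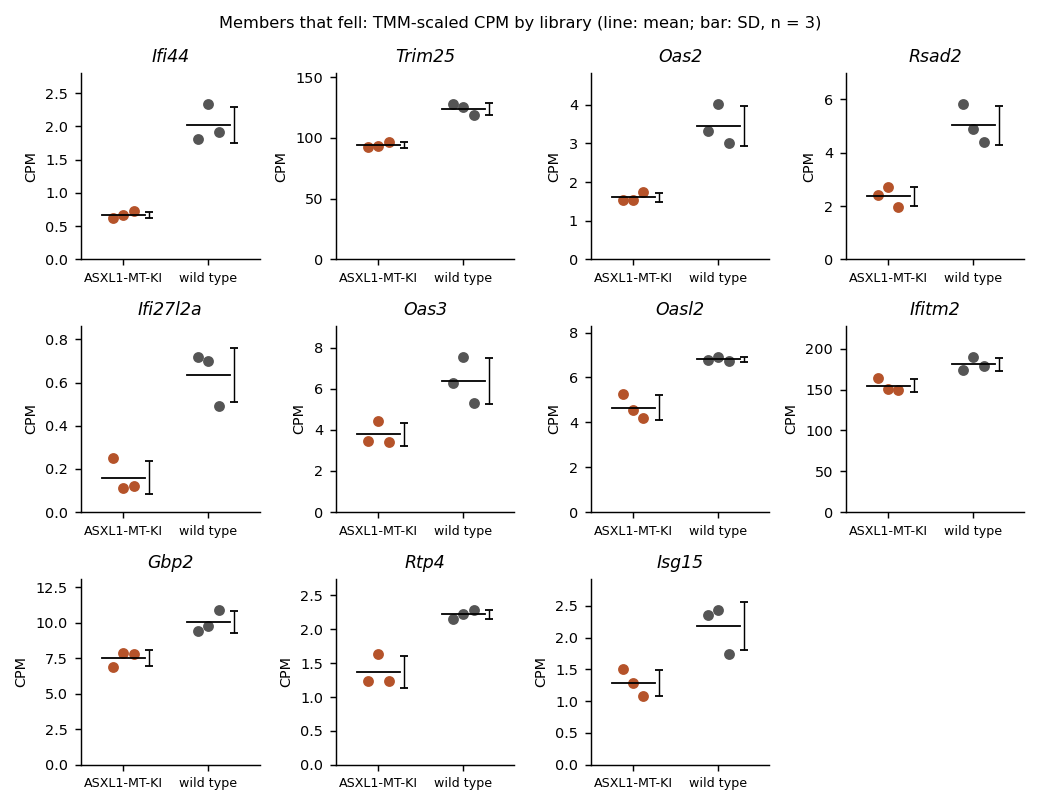
TMM-scaled CPM (y axis, from 0) in each ASXL1-MT-KI library (left) and wild type library (right) for the 11 members that fell, with the mean as a line and the SD of 3 libraries as a bar. In every panel the 3 ASXL1-MT-KI points lie below the 3 wild type points; Trim25 and Ifitm2 have the highest levels of the 11.

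The membrane proteins of the IFITM family, which block fusion of viruses with the cell, and the tether Bst2 were among the most abundant members per length, at 236 CPM per kb for Ifitm2 in ASXL1-MT-KI and 276 in wild type. Ifitm2 had 163.5, 150.3 and 149.3 CPM in ASXL1-MT-KI, against 173.7, 189.9 and 178.7 CPM in wild type (log2 fold change -0.23 ± 0.056, adjusted p = 0.0229). The call was lost with total counts in place of TMM scaling (adjusted p = 0.0515), when wild type replicate 2 was omitted (0.0701), and when ASXL1-MT-KI replicate 2 or 3 was (0.0990 and 0.0685). Ifitm3, with 47.2, 47.4 and 42.4 CPM in ASXL1-MT-KI and 47.8, 53.0 and 45.7 CPM in wild type, did not pass (adjusted p = 0.410), nor did Ifitm1, at 28.7 ± 4.22 and 33.9 ± 6.34 CPM in the same order (adjusted p = 0.356). Bst2 had 41.8, 39.6 and 35.5 CPM in ASXL1-MT-KI and 39.0, 44.7 and 36.8 CPM in wild type (log2 fold change -0.04, 95% interval -0.24 to 0.15; adjusted p = 0.790).

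A group of 6 members outside the OAS family encodes sensors of RNA or other nucleic acids, their regulators and an editor of RNA. None of these 6 passed in edgeR, DESeq2 or limma-voom (1 lower and 0 higher at an unadjusted p under 0.05 in edgeR). All but Zbp1 averaged over 10 CPM in both groups. Ifih1, the gene of the sensor MDA5, had 26.3, 26.4 and 24.4 CPM in ASXL1-MT-KI, against 27.2, 25.8 and 23.3 CPM in wild type (log2 fold change 0.01, 95% interval -0.16 to 0.19). Dhx58, which encodes LGP2, a regulator of the RNA sensors, averaged 11.7 ± 0.171 and 12.3 ± 0.969 CPM in the same order (95% interval -0.27 to 0.12). Ddx58, the gene of RIG-I, had 15.3, 13.7 and 15.6 CPM in ASXL1-MT-KI, against 16.1, 16.8 and 19.6 CPM in wild type; it missed the threshold (log2 fold change -0.23, adjusted p = 0.132) but passed with the block (adjusted p = 0.0338). The kinase PKR is encoded by Eif2ak2, with 40.2, 45.9 and 45.2 CPM in ASXL1-MT-KI and 48.3, 38.9 and 46.9 CPM in wild type (95% interval -0.23 to 0.17). Adar, whose enzyme edits double-stranded RNA and so keeps MDA5 quiet, had 84.8, 92.9 and 85.1 CPM in ASXL1-MT-KI and 90.5, 93.5 and 91.0 CPM in wild type (95% interval -0.18 to 0.05), and shares 1365 exon bases with Chrnb2 on the other strand. Zbp1, the sensor of Z-form nucleic acids, was low, at 1.0 ± 0.174 CPM in ASXL1-MT-KI and 1.27 ± 0.266 CPM in wild type (adjusted p = 0.373).

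Stat2, the subunit that is particular to type I and III interferon signalling, had the reverse pattern. It had 34.2, 36.4 and 39.5 CPM in ASXL1-MT-KI, against 31.4, 31.0 and 31.9 CPM in wild type, without overlap. The difference missed the threshold (log2 fold change 0.22 ± 0.068, adjusted p = 0.0553) and passed with the block, with total counts and in DESeq2 (adjusted p = 0.0118, 0.0307 and 0.0495). Dtx3l and Parp9, partners in a ubiquitin ligase complex, overlap by 458 exon bases on opposite strands, so their counts cannot be fully told apart. Dtx3l had 56.9, 59.0 and 58.2 CPM in ASXL1-MT-KI, against 52.1, 53.8 and 54.9 CPM in wild type, without overlap (log2 fold change 0.12, adjusted p = 0.154), and Parp9 averaged 26.1 ± 0.763 CPM in ASXL1-MT-KI and 28.5 ± 0.971 CPM in wild type (log2 fold change -0.13, adjusted p = 0.197). Their neighbour Parp14 had 34.2, 38.5 and 41.5 CPM in ASXL1-MT-KI, against 32.6, 32.7 and 36.2 CPM in wild type (adjusted p = 0.202; 0.0439 with the block). Of the other effectors, Xaf1 averaged 3.07 ± 0.284 CPM in ASXL1-MT-KI and 3.90 ± 0.300 CPM in wild type without overlap (adjusted p = 0.134). Lgals3bp had 118.4, 113.4 and 92.9 CPM in ASXL1-MT-KI and 105.1, 115.4 and 91.8 CPM in wild type, and Ifi35 had 19.5, 21.5 and 20.8 CPM in ASXL1-MT-KI and 21.2, 22.7 and 20.7 CPM in wild type. Both overlapped, as did Samd9l, and their log2 fold changes were 0.06, -0.07 and -0.07 (adjusted p = 0.781, 0.592 and 0.634).

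The interferon-inducible GTPases attack the vacuoles of intracellular pathogens, and the Irgm proteins of mouse regulate the others. Gbp2, Gbp3 and Gbp7 lie side by side on chromosome 3, and 1 of them passed. Gbp2 had 6.88, 7.90 and 7.79 CPM in ASXL1-MT-KI, against 9.46, 9.81 and 10.9 CPM in wild type, and fell (log2 fold change -0.42 ± 0.10, adjusted p = 0.0236). The call was lost without wild type replicate 1 (adjusted p = 0.05004) and on leaving out ASXL1-MT-KI replicate 1 or 2 (0.0831 and 0.0513). Gbp7 had 48.6, 55.4 and 54.5 CPM in ASXL1-MT-KI, against 46.8, 45.1 and 45.3 CPM in wild type, again without overlap, with every ASXL1-MT-KI library above every wild type library. It missed the threshold (log2 fold change 0.21 ± 0.063, adjusted p = 0.0535), and passed with the block, with total counts, with a filter at CPM 1 (adjusted p = 0.0129, 0.0264 and 0.0496), and when ASXL1-MT-KI replicate 1 was omitted (0.0337). Gbp3 had 50.8, 56.0 and 48.8 CPM in ASXL1-MT-KI and 53.8, 52.3 and 55.7 CPM in wild type (95% interval -0.20 to 0.08 on the log2 scale).

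Among the IRG genes, Irgm1 had 26.0, 27.4 and 26.2 CPM in ASXL1-MT-KI and 24.3, 26.5 and 21.5 CPM in wild type. Igtp had 9.57, 9.71 and 9.14 CPM in ASXL1-MT-KI and 7.56, 10.1 and 8.06 CPM in wild type; neither passed (adjusted p = 0.299 and 0.473). Irgm2 had 2.79, 4.0 and 3.83 CPM in ASXL1-MT-KI, against 1.96, 3.21 and 2.98 CPM in wild type (log2 fold change 0.38, adjusted p = 0.270; 0.0486 with the block). Irgm2 and Igtp share 162 exon bases on the same strand. Iigp1, which encodes an effector GTPase, was near silent, with 0.417, 0.708 and 0.386 CPM in ASXL1-MT-KI and 0.719, 0.851 and 0.936 CPM in wild type; the groups did not overlap, and the gene did not pass (log2 fold change -0.72 ± 0.29, adjusted p = 0.130).

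None of the antigen-processing members passed. Psmb8 and Psmb9, the inducible catalytic subunits of the immunoproteasome, and Tap1, a subunit of the peptide transporter, lie next to each other on chromosome 17. Psmb8 had 205.6, 195.8 and 208.2 CPM in ASXL1-MT-KI and 199.3, 197.7 and 202.6 CPM in wild type (log2 fold change 0.02, 95% interval -0.08 to 0.12; adjusted p = 0.775). Tap1 had 156.8, 156.2 and 141.7 CPM in ASXL1-MT-KI and 160.7, 152.2 and 154.9 CPM in wild type (95% interval -0.16 to 0.08; adjusted p = 0.665), and Psmb9 averaged 58.0 ± 0.689 and 58.9 ± 2.52 CPM in the same order (95% interval -0.14 to 0.09). Psmb9 and Tap1 share 212 exon bases on opposite strands.

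Most of the members that fell had low levels. With a division at a mean of 10 CPM, chosen after the values were seen, 9 of 20 weaker members fell (45.0%) and 2 of 26 stronger ones (7.69%, Trim25 and Ifitm2). The 9 include Ifi27l2a, which passed the filter on low counts only through the wild type libraries. Over all tested genes, 5.93% of those below 10 CPM and 8.58% of those at or above it fell. The median log2 fold change was -0.56 in the weaker members and -0.05 in the stronger ones, beside 0.07 and -0.01 for all genes on the same sides. Within the OAS/IFIT/MX type all 16 tested members below 10 CPM had a negative estimate and 8 of them fell, while 14 of 20 at or above it had a negative estimate and 2 fell. Standard errors were larger in the weaker members (median 0.204, against 0.0726 in the stronger), so that a given change is harder to call there.

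**Figure D3:**
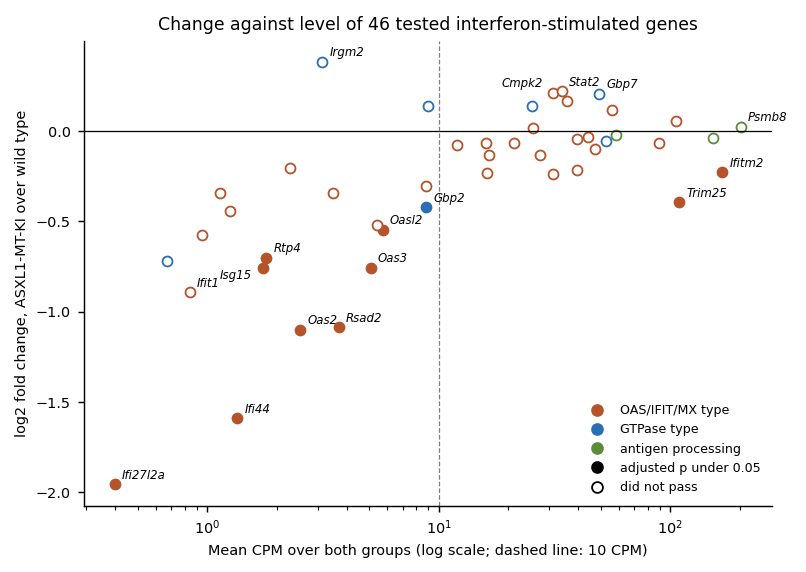
Log2 fold change of ASXL1-MT-KI over wild type (y axis) against the mean CPM over both groups (x axis, log scale) for the 46 tested members, coloured by role and filled where the adjusted p was under 0.05. To the left of the dashed line at 10 CPM, 9 of 20 members fell, and to the right 2 of 26.

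Promoter sequence was compared with these changes because the response elements are the sites at which interferon signals reach the genes. RefSeq promoters on GRCm38.p6, from 250 bases before to 50 after a gene's start, were at hand for 36 of the 47 members. The response element, searched as GAAA, any 2 bases and GAAA (TTTC, any 2 bases and TTTC on the other strand) with overlapping matches allowed, was in a promoter of 20 of the 36 (55.6%) and in 3.44% of all 32851 promoters of the same length. By role it was in 14 of 27 genes of the OAS/IFIT/MX type, 6 of 6 GTPase genes and 0 of 3 antigen-processing genes. The gamma-activated site TTCNNNGAA, which reads the same on both strands, was in 11 of the 36 (30.6%), beside 8.30% of all promoters and 8.35% of tested genes with a promoter. The windows below are the first match of 5 members that fell and 5 that did not pass, each with 25 bases before it, written 5' to 3' along the gene's strand; capitals mark matches to either element.
Isg15, fell (chr4:156200862-156200921, minus strand): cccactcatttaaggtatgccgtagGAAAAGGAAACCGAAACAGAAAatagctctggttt
Rsad2, fell (chr12:26456538-26456597, minus strand): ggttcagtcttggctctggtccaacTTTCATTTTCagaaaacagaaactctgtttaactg
Oas3, fell (chr5:120777700-120777759, minus strand): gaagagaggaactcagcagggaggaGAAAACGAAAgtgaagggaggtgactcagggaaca
Gbp2, fell (chr3:142620579-142620638, plus strand): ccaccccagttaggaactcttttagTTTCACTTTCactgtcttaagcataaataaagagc
Ifitm2, fell (chr7:140955973-140956032, minus strand): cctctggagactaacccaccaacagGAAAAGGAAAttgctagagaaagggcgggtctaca
Ifit1, did not pass (chr19:34640760-34640819, plus strand): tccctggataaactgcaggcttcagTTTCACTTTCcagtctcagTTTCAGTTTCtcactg
Oas1a, did not pass (chr5:120907511-120907570, minus strand): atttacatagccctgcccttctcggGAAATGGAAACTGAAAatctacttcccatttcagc
Gbp3, did not pass (chr3:142559974-142560033, plus strand): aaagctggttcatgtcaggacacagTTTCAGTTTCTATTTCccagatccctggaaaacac
Irgm1, did not pass (chr11:48871416-48871475, minus strand): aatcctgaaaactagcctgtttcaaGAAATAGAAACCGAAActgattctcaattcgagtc
Igtp, did not pass (chr11:58199497-58199556, plus strand): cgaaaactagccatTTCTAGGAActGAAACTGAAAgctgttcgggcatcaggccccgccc

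Isg15 carried 3 overlapping matches, and Irgm1, Oas1a and Gbp3 carried tandem pairs of the same kind. In Igtp a gamma-activated site, the first run of capitals, stood directly before the response element. Members that fell were found both with and without the element: of 19 tested members with it 5 fell, with a median log2 fold change of -0.10, and of 16 without it 3 fell, with a median of -0.07. The 3 that fell with no match were Trim25, Ifi44 and Oasl2; that says only that these letters are not in the window searched.

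Upstream of these genes, the interferons themselves were at the edge of detection and the type I and gamma receptor chains did not pass. All 21 interferon gene rows (alpha, beta, epsilon, kappa, zeta, gamma and lambda) together held 21 counts in the 3 ASXL1-MT-KI libraries and 24 in the 3 wild type libraries, at most 4 in any library, and 14 rows were at 0 throughout. For a row at 0 a floor of 3 counts over a group allows up to 0.0227 CPM in ASXL1-MT-KI and 0.02225 CPM in wild type, which covers counting error only. Ifnar1 averaged 74.6 ± 3.59 CPM in ASXL1-MT-KI and 72.1 ± 0.910 CPM in wild type (95% interval of the log2 fold change -0.07 to 0.17), and Ifnar2 95.3 ± 5.96 and 96.6 ± 4.83 CPM in the same order (-0.16 to 0.12). The interferon gamma receptor genes Ifngr1 (95% interval -0.17 to 0.11) and Ifngr2 (-0.04 to 0.31) did not pass either. Il10rb, the receptor chain that lambda interferons share with interleukin 10, passed only with the block, and as a rise (log2 fold change 0.19, adjusted p = 0.0226). Irf9 had 34.1, 41.6 and 34.5 CPM in ASXL1-MT-KI, against 42.2, 45.5 and 37.7 CPM in wild type; it overlapped and did not pass (log2 fold change -0.19, adjusted p = 0.225), except with the block (adjusted p = 0.0226).

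Of 17 tested genes of the receptor and JAK-STAT list, 4 fell (23.5%, beside 7.69% of all genes) and none rose in edgeR. At an unadjusted p under 0.05, 5 were lower and 0 higher. In DESeq2 3 fell and none rose, and in limma-voom 4 and none. The 4 that fell in edgeR are known as brakes on cytokine signalling. Ptpn6 and Pias1, also known as brakes and named after their values were seen, did not pass (log2 fold change 0.03 and -0.11, adjusted p = 0.674 and 0.174). Socs3, an inhibitor of JAK kinases at gp130-type receptors, had 27.9, 18.8 and 23.5 CPM in ASXL1-MT-KI, against 93.8, 76.8 and 62.4 CPM in wild type (log2 fold change -1.73 ± 0.20, adjusted p = 0.00330). Ptpn2, a phosphatase of JAK1, averaged 53.0 ± 3.86 CPM in ASXL1-MT-KI and 67.0 ± 3.39 CPM in wild type (log2 fold change -0.34, adjusted p = 0.00901). Both passed in all 15 alternatives. Socs1, the main inhibitor of the interferon receptors' kinases, averaged 2.66 ± 0.0828 CPM in ASXL1-MT-KI and 3.68 ± 0.159 CPM in wild type (log2 fold change -0.47, adjusted p = 0.0410), and Ptpn1 91.6 ± 3.31 and 103.9 ± 3.53 CPM in the same order (log2 fold change -0.18, adjusted p = 0.0410). Without wild type replicates 1 and 2 in turn the adjusted p of Socs1 was 0.121 and 0.0915, and that of Ptpn1 0.141 and 0.0915. Leaving out ASXL1-MT-KI replicates 1, 2 and 3 in turn gave 0.104, 0.132 and 0.0820 for Socs1 and 0.0620, 0.167 and 0.0942 for Ptpn1. Total counts in place of TMM ended both calls (0.0591 and 0.0893), and Socs1 also missed in DESeq2 (0.0582), without a filter (0.0536) and without number 3 of both groups (0.0554).

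In the list of nucleic acid sensing and interferon induction, 2 of 19 tested genes fell (10.5%, near the 7.69% of all genes) and none rose in edgeR (2 lower and 1 higher at an unadjusted p under 0.05; none rose in DESeq2 or limma-voom). Irf7, the interferon-inducible factor that drives interferon alpha genes, had 3.58, 3.58 and 2.63 CPM in ASXL1-MT-KI, against 5.62, 6.13 and 4.34 CPM in wild type (log2 fold change -0.71 ± 0.18, adjusted p = 0.0242). Its adjusted p was 0.0929 and 0.0750 without wild type replicates 1 and 2, and 0.0613 on leaving out ASXL1-MT-KI replicate 3. Tlr7, the endosomal sensor of single-stranded RNA, had 1.06, 1.30 and 1.28 CPM in ASXL1-MT-KI, against 1.59, 2.73 and 2.59 CPM in wild type (log2 fold change -0.92 ± 0.24, adjusted p = 0.0278). Its adjusted p was 0.0865 without wild type replicate 2, 0.0889 and 0.0658 on leaving out ASXL1-MT-KI replicates 1 and 2, and 0.0620 without number 3 of both groups.

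Among the partners of the antigen-processing members, 4 of the 8 tested chain genes of the MHC class I molecule fell: B2m, H2-K1, H2-D1 and H2-Q4. H2-T23, H2-T10, H2-M3 and H2-L did not pass (adjusted p = 0.0741, 0.499, 0.514 and 0.797; H2-T23 0.0199 with the block). Of all 20 tested genes of MHC class I and its loading, those 4 (20.0%, beside 7.69% of all genes) fell and none rose in edgeR (8 lower and 0 higher at an unadjusted p under 0.05; 4 and none in DESeq2 and in limma-voom). H2-K1 had 840.9, 791 and 796.3 CPM in ASXL1-MT-KI, against 973.7, 906 and 972.7 CPM in wild type (log2 fold change -0.23 ± 0.049, adjusted p = 0.0127). B2m, the invariant light chain, had 649.9, 624.8 and 612.2 CPM in ASXL1-MT-KI, against 772.9, 716.5 and 715.8 CPM in wild type (log2 fold change -0.23 ± 0.050, adjusted p = 0.0149). H2-D1 fell by 0.22 and H2-Q4 by 0.28 on the log2 scale (adjusted p = 0.0124 and 0.0296); the MHC genes are near copies of each other, so their counts may be split. All 4 calls were lost without wild type replicate 1 (adjusted p = 0.0526 for H2-K1, 0.0559 for B2m, 0.0548 for H2-D1 and 0.106 for H2-Q4). They were also lost when ASXL1-MT-KI replicate 2 was omitted (0.0631, 0.0659, 0.0646 and 0.0891 in the same order). B2m and H2-Q4 also missed when ASXL1-MT-KI replicate 3 was omitted (0.0511 and 0.0672), and H2-Q4 without wild type replicate 3 (0.0540), without number 3 of both groups (0.143) and with total counts (0.0584). With the block 8 fell. Tap2 and Tapbp, the other transporter subunit and its adaptor, averaged 210.0 ± 4.84 and 173.4 ± 3.50 CPM in ASXL1-MT-KI and 210.1 ± 10.5 and 174.8 ± 3.11 CPM in wild type, and neither passed (adjusted p = 0.993 and 0.896).

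Other interferon-stimulated genes of the same families, outside the 47, gave 8 falls and 2 rises among 53 tested. These are 18.9% called, beside 16.0% of all genes, and 15.1% lower, beside 7.69%. With the block 13 fell and 4 rose. Ifi203 and Mndal, DNA-binding proteins of the interferon-inducible p200 family that lie in a cluster of close paralogs, averaged 39.3 ± 2.63 and 31.8 ± 1.47 CPM in ASXL1-MT-KI and 57.4 ± 4.75 and 44.3 ± 4.48 CPM in wild type (adjusted p = 0.00170 and 0.00428). Ifi27 fell by 0.95 and Helz2, a helicase coactivator, by 0.35 on the log2 scale (adjusted p = 0.00418 and 0.00228). These 4 calls passed in all 15 alternatives. Cxcl10, the chemokine induced by interferon gamma and by NF-kB, had 9.65, 7.65 and 5.62 CPM in ASXL1-MT-KI, against 27.0, 18.4 and 17.2 CPM in wild type (log2 fold change -1.45 ± 0.25, adjusted p = 0.0112; 0.0623 without ASXL1-MT-KI replicate 2). Gbp6, a further guanylate-binding protein, averaged 0.344 ± 0.139 CPM in ASXL1-MT-KI and 0.869 ± 0.0869 CPM in wild type (log2 fold change -1.34, adjusted p = 0.0200; 0.0856 when wild type replicate 1 was omitted and 0.0659 when ASXL1-MT-KI replicate 1 was). The 2 that rose, named after their values were seen, were Znfx1 and Parp11, by 0.37 and 0.47 on the log2 scale (adjusted p = 0.0246 and 0.0271). Znfx1 had an adjusted p of 0.107 and 0.0641 when wild type number 1 or 2 was omitted, and 0.0856 and 0.0693 when ASXL1-MT-KI number 2 or 3 was; Parp11 had 0.112, 0.0664, 0.104 and 0.0742 for the same omissions.

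**Figure D4:**
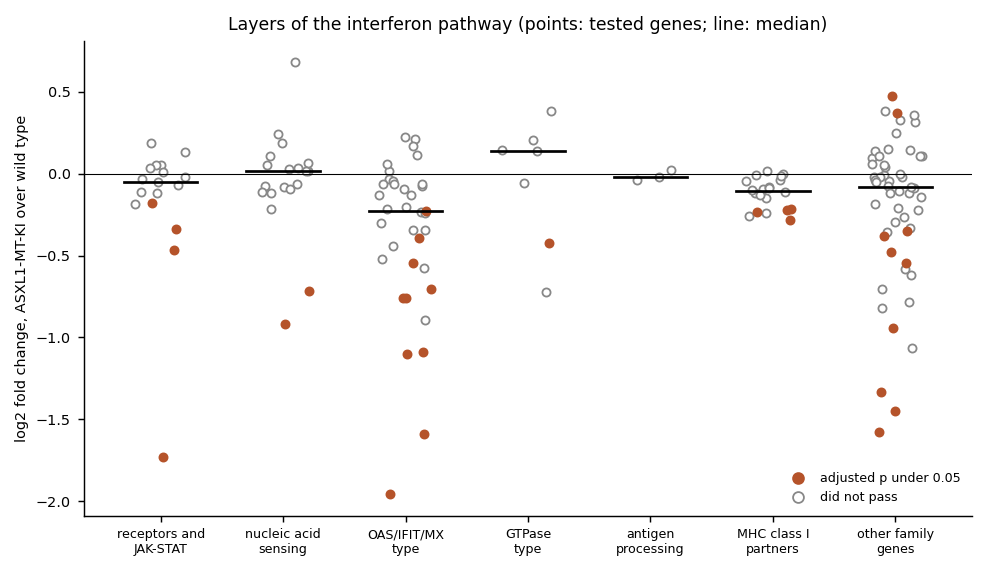
Log2 fold change of ASXL1-MT-KI over wild type (y axis) for tested genes of 7 layers of the interferon pathway (x axis), with each gene as a point, filled where the adjusted p was under 0.05, and the median of the layer as a line. The medians run from -0.23 in the OAS/IFIT/MX type to 0.14 in the GTPase type.

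These are bulk samples, in which fewer cells of a type and less RNA per cell cannot be told apart. Markers of several cell types differed between the groups. In the list for lineage-negative c-Kit-positive cells 5 of 14 tested genes fell (35.7%, beside 7.69% of all genes) and 1 rose (beside 8.29%). A higher estimate was found in 4, and none was at 0. The summed level was 16200 to 16910 CPM in ASXL1-MT-KI and 15710 to 17490 CPM in wild type. Most of that sum came from 1 gene, with up to 693513 counts in a library, so it says little about the other markers. Procr, Mecom and Hlf, which mark stem cells, fell by 1.44, 0.86 and 0.53 on the log2 scale (adjusted p = 0.00179, 0.00467 and 0.0184). The Hlf call was lost when ASXL1-MT-KI replicate 1 or 2 was omitted (0.0580 and 0.0562). Slamf1, also a stem cell marker, had a higher estimate that did not pass (log2 fold change 0.59, adjusted p = 0.141, and 0.0480 with the block). Flt3 and Cd34 of the same list fell too (log2 fold change -0.65 and -0.31), and no alternative lost either call. The gene that rose was Myb (log2 fold change 0.20), a call lost in 4 alternatives. With the block 7 of the list fell and 3 rose, where 13.8% and 16.7% of all genes did. In the list for plasmacytoid dendritic cells, the main source of type I interferon, 3 of 10 tested genes fell (30.0%, beside 7.69% of all genes) and 1 rose (beside 8.29%). With the block 3 fell and 2 rose, where 13.8% and 16.7% of all genes did. The sum was 534.8 to 559.5 CPM in ASXL1-MT-KI and 555.3 to 609.4 CPM in wild type, most of it from 1 gene with up to 17051 counts in a library. The defining marker Siglech had 9 counts in ASXL1-MT-KI and 20 in wild type, and Klk1 had 0 and 1. In the B cell list 3 of 11 tested genes fell (27.3%, beside 7.69% of all genes) and none rose in edgeR (7 lower and 1 higher at an unadjusted p under 0.05). With the block 6 fell and 1 rose, beside the same 13.8% and 16.7% of all genes. The list took 23.9 to 28.5 CPM in all in ASXL1-MT-KI and 24.9 to 29.5 CPM in wild type, most of it from 1 gene with up to 965 counts in a library. All 14 of the erythroid list had a higher estimate (5 at an unadjusted p under 0.05), and 1 rose in edgeR (7.14%, beside 8.29% of all genes). That gene was Slc4a1, the anion exchanger of red cells, which rose by 1.10 on the log2 scale (adjusted p = 0.000815). With the block 13 of the 14 rose, where 16.7% of all genes did. The sum of the 14 was 2643 to 3637 CPM in ASXL1-MT-KI and 1784 to 2986 CPM in wild type. The part of these cells in the interferon-stimulated gene levels was not tested.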

How the data were processed

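RNA of LK cells was sequenced in 6 libraries as paired reads, per the labels' protocols, with a kit that does not mark strand. HISAT2 2.0.4 and mm10 are named in the submitters' processing notes. The counting tool, its annotation and how it treated shared reads are not given in these sources. The authors deposited raw counts per gene symbol, which were used as they stand. Genes were filtered with filterByExpr (minimum count 10), scaled by TMM and compared with edgeR 4.0.16 in R 4.3.3 (robust quasi-likelihood F test, genotype as the only term, Benjamini-Hochberg over 13548 genes, threshold 0.05). CPM are TMM-scaled. The SE of a log2 fold change is its absolute value over the square root of F, and 95% intervals use the fit's degrees of freedom. Gene positions and transcript lengths are those of GENCODE M21 and promoters those of RefSeq. Every member was named; other genes were named from 6 pathway lists if they passed, up to 6 by p, and always Irf9, Irf7, the interferon receptor chains, B2m, H2-K1 and H2-D1. 1 gene that the rule names is not reported here. Members and lists were chosen with earlier results of these data known. P-values measure only the spread between these libraries.

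Replicate numbers come from the titles, and no label says what they share. Deviations from the group mean, across genes, correlated at 0.253, 0.162 and 0.391 for numbers 1, 2 and 3, each over 0.1. The numbers were therefore also fitted as pairs, in the block alternative only. The main fit had genotype as its only term and did not use the pairs. Number 2 of wild type correlated with number 1 of ASXL1-MT-KI as closely, at 0.163. On simulated counts the pipeline recovered 69.9% of genes changed 1.5-fold, 84.5% at 2-fold and 100% at 4-fold. Of its 192 calls there at an adjusted p under 0.05, 25 were false. Alternatives were the block, DESeq2 size factors, total counts, DESeq2 1.42.0, limma-voom (limma 3.58.1), no filter, a CPM of 1 in 3 libraries, a threshold of 0.10, each library left out, and number 3 of both groups left out. Figures were drawn with matplotlib 3.10.9.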

Additional observations from a re-analysis of the deposited data

How the results depend on the processing

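No member that was called changed sign in any of the 15 alternatives, and 4 of the 11 falls passed in all of them. Ifi27l2a passed in the 14 that tested it, but it entered the main test only through the wild type libraries. Of the members that did not pass, 10 did so in at least 1 alternative, and 25 in none that tested them. With the replicate block, 2256 of all genes rose and 1876 fell, 5 members rose (3 of the OAS/IFIT/MX type and 2 GTPase genes), 1 gene rose in each of the receptor and the sensing lists, 8 MHC class I partners fell, and 4 of the other family genes rose and 13 fell. With total counts 2 members rose (1 of the OAS/IFIT/MX type and 1 GTPase gene), 2 receptor list genes fell and 1 sensing gene rose; rises were then 1562 of all genes and falls 767. In DESeq2 1 member rose, of the OAS/IFIT/MX type; with a CPM of 1 in 3 libraries 1, a GTPase gene. At an adjusted p under 0.10, 2 members rose (1 and 1 of those roles), as did 1 sensing gene, and 7 MHC class I partners fell. Without number 3 of both groups 1 sensing gene rose and 1 fell. On leaving out 1 library at a time, rises of all genes ran from 534 to 1216 and falls from 587 to 1041; among members 0 to 1 rose and 6 to 12 fell, in the OAS/IFIT/MX type 6 to 11 fell, and in the GTPase type 0 to 1 rose and 0 to 1 fell. In the receptor list 2 to 5 fell, in the sensing list 0 to 1 rose and 0 to 2 fell, 0 to 5 MHC class I partners fell, and 0 to 2 of the other family genes rose and 5 to 9 fell. The cause of these shifts was not tested. The median log2 fold change of the antigen-processing genes, -0.02, changed sign with total counts (0.0286) and without number 3 of both groups (0.0083), and ran from -0.056 to 0.0042 with 1 library left out. That of the sensing list, 0.02, did so with a CPM of 1 in 3 libraries (-0.0212) and without number 3 of both groups (-0.011), and ran from -0.0212 to 0.0281 with 1 library left out. A stricter response element, with a further C, was in 15 of 36 promoters. Ifi27l2a and Ifit3 rest on under 100 counts in each group.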
